A study of Homo sapiens with 52 samples.

Results

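The zinc finger genes of chromosome 19 were examined in fusion-positive rhabdomyosarcoma (FP-RMS) cells, a childhood muscle-lineage tumour driven by the PAX3-FOXO1 fusion, treated with inhibitors of chromatin regulators. Members were all genes on chromosome 19 whose symbol is ZNF followed by a number. There were 238 of them among 27043 genes in the table and among 1735 genes on that chromosome. The screen held 44 RNA-seq samples. Each of 20 compounds was given for 6 h at a high and a low dose, 1 sample each, 10 and 1 µM or, for Cpd50, GSKJ4 and LAQ824, 5 and 0.5 µM, and 4 samples received the solvent DMSO, 2 at 0.2% and 2 at 0.1%. A separate experiment held 1 sample given 1 µM N1302 for 6 h and its DMSO sample (0.1%), and a time course of 1, 6 and 24 h had 1 sample with 1 µM entinostat and 1 with DMSO (0.1%) at each time. All samples are FP-RMS cell lines with PAX3-FOXO1. Screen titles read RH41 while their cell-line label reads RH4, so screen samples were never set directly against the samples titled RH4.

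Most zinc finger proteins of this kind carry an array of DNA-binding fingers, and many start with a KRAB domain, which recruits TRIM28 (KAP1) and through it the histone methyltransferase SETDB1, histone deacetylases and heterochromatin proteins. They are known for silencing transposable elements, and some for silencing genes, their own family included. On chromosome 19 they lie in clusters that grew by tandem duplication, so neighbours are often close copies. Reads shared between near-identical copies may have been split between them by the authors' counting, and values of single members are uncertain to that extent.

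Under bromosporin, an inhibitor of bromodomains, which are readers of histone acetylation, most tested zinc finger genes of 2 clusters rose, whereas more of the chromosome's other genes of similar level fell than rose. Most of the calls in these 2 clusters were lost when the high-dose bromosporin sample was left out. At the low dose the median change was 0.48 in each. The histone deacetylase (HDAC) inhibitors LAQ824 and WT161 raised all 5 members of the first cluster, and moved members of the other clusters in both directions. MC1568, labelled as an HDAC4/5 inhibitor, raised 51 members (22.9%) and lowered 0, where 20.6% of all genes were higher, so the share is near the background. N1302, in a single sample, went with lower levels across cluster 5, where bromosporin raised 21 of 27 tested members. Of the compounds aimed at histone methylation, UNC0638 called the most members, 13 (5.83%), a smaller share than the 14% of all genes. That count changed widely when either of its doses was left out.

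Members were ordered by their start on chromosome 19 in build hg19, and a new cluster was begun where consecutive starts lay more than 1 Mb apart. This gave 16 clusters, numbered here from 1 to 16. The 9 clusters with at least 5 members held 229 of the 238. Cluster 1 (chr19:2819872-2944969) held 5 members, cluster 2 (chr19:7069471-9879410) 15, cluster 3 (chr19:11594242-12740676) 26, cluster 5 (chr19:19778962-24312769) 34, cluster 8 (chr19:35168544-35454953) 5, cluster 9 (chr19:36672962-38270230) 24, cluster 12 (chr19:44037340-45579688) 24, cluster 15 (chr19:52074490-54083523) 39 and cluster 16 (chr19:55987699-59000900) 57.

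The promoters of clusters 3 and 5 shared sequence, and 6 of them are shown because these are the clusters that rose under bromosporin. Promoter windows, 250 bases before to 50 after the gene start, came from RefSeq (build GRCh38.p14), and 206 of the 238 members had one. Of all words of 10 bases, TCCAATCAGG, which contains the CCAAT box bound by the factor NF-Y, was held on either strand by the most promoters of cluster 5, 24 of 26 (92.3%), and that is how it was picked. The next word was held by 21. In cluster 3 it stood in 14 of 24 promoters (58.3%). It stood in 41 of 206 member promoters (19.9%), in 0 of 179 promoters of other chromosome 19 genes of similar level, and in 106 of all 27305 promoters (0.388%). Of 172 promoters of numbered ZNF genes on other chromosomes, 11 held it (6.4%). In 40 of the 41 member promoters the match lay on the gene's own strand. The 41 matches lay between 30 and 233 bases before the start with a median of 59. The 3 member matches outside clusters 3 and 5 were ZNF556, ZNF57 and ZNF77, 3 of the 5 promoters of cluster 1 (60%). The shorter CCAAT, which any TCCAATCAGG also holds, stood in 26 of 26 promoters of cluster 5 (100%) and in 22 of 24 of cluster 3 (91.7%), against 35.7% of all promoters. It also stood in 5 of 5 promoters of cluster 1 and in 31 of 52 of cluster 16 (59.6%). In the remaining clusters of 5 or more members its share ran from 13.6% (cluster 9) to 50% (cluster 8). Among numbered ZNF genes on other chromosomes its share was 45.9%. CCGGAAG, the core that ETS factors bind, stood in 18 of 26 promoters of cluster 5 (69.2%) and in 2 of 24 of cluster 3 (8.33%). Its share was 75% in cluster 8 (3 of 4), 62.5% in cluster 15 and 59.6% in cluster 16. It stood in 90 of 206 members (43.7%), in 70 of 172 numbered ZNF genes on other chromosomes (40.7%) and in 10.7% of all promoters. Cluster 5 was chosen for this search after it was seen to move, so these shares are a description.

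Below are the 250 bases before the start of the 3 members of cluster 5 and the 3 of cluster 3 with the largest called rise under bromosporin, followed by the 2 members with the largest called fall, each among members with a promoter entry. Each is written 5′ to 3′ on the gene's strand. Capitals mark matches to TCCAATCAGG, to CCAAT or to CCGGAAG on either strand. In order, the GRCh38.p14 windows are chr19:23116775-23117024 (plus strand), chr19:20565782-20566031 (minus), chr19:21141790-21142039 (plus), chr19:12052962-12053211 (minus), chr19:12064481-12064730 (plus), chr19:11798273-11798522 (plus), chr19:56121296-56121545 (minus) and chr19:8514168-8514417 (minus).
ZNF730: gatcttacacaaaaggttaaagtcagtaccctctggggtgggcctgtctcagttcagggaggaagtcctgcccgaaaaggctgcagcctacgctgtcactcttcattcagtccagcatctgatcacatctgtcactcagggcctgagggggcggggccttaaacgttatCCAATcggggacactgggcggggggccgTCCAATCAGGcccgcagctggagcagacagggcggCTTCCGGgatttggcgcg
ZNF737: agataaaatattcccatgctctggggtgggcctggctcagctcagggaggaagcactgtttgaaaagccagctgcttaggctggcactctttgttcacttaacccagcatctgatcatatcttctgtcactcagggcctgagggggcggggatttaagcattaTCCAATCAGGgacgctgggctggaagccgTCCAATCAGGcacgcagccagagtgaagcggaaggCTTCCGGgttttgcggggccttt
ZNF431: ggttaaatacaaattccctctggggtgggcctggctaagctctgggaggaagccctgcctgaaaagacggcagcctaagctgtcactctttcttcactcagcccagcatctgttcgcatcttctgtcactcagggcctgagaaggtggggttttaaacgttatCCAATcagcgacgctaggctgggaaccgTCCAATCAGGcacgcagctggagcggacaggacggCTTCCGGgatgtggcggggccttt
ZNF878: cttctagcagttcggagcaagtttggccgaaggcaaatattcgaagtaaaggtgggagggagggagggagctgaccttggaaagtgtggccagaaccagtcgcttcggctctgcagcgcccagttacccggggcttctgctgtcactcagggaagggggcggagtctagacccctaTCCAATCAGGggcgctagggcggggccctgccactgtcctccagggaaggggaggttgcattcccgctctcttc
ZNF844: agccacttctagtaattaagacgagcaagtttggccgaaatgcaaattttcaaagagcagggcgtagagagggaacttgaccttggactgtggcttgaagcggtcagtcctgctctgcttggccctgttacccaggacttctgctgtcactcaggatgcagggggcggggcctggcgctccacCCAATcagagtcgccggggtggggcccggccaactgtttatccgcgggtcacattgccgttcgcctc
ZNF491: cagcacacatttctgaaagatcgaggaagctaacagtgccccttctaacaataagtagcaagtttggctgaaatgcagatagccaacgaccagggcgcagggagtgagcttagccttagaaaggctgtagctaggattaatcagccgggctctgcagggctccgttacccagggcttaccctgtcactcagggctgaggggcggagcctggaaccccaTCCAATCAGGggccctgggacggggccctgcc
ZNF787: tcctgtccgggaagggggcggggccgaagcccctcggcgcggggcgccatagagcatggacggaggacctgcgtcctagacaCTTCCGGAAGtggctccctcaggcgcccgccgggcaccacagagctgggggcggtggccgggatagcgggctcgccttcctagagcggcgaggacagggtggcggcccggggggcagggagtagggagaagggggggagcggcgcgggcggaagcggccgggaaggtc
ZNF414: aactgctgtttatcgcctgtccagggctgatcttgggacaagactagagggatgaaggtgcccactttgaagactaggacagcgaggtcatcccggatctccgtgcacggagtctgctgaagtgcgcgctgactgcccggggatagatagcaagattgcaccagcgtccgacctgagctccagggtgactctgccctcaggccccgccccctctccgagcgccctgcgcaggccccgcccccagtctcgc
ZNF737 held TCCAATCAGG at 2 places, ZNF844 held only the shorter CCAAT, and the promoters of ZNF787 and ZNF414, which fell, held no CCAAT.

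The screen DMSO samples had 16772069 to 22400978 assigned reads, and all 52 samples 5737939 to 41415071. A member had a median of 181 to 281 reads in the screen DMSO samples and of 70 to 478 over all samples. The screen DMSO samples expressed the muscle regulators MYOD1 (640 to 648 TPM, the read level scaled for gene length and library size) and MYOG (572 to 587). MYF5, on the same marker list, was at 0 to 0.321 TPM. PTPRC, a blood cell marker, was at 0 in all 4. Both samples of 1 DMSO concentration differed by no more than sampling noise once their flow cells were allowed for, the remaining variance being 1.02 times counting noise, so they were counted as 1 and n is 2 concentrations. Other libraries are labelled as separate samples with nothing on separate cultures, so p-values measure the spread between these samples only. Each compound had 1 sample per dose, so in the screen fit both doses stood in for replicates. The spread behind its p-values therefore includes differences between compounds in their dose response. In 3 libraries, the high-dose samples of bromosporin, Merck60 and PFI-2, genes with 1 to 20 reads had an even number in 70.2% to 75% of cases, against 39.9% to 43.1% in the other 49, so their read totals cannot be set beside the others. The part of this in their TPM was not tested.

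Of the 238 members, 223 passed the expression filter (at least 1 TPM in at least 2 samples), and 217 of these passed it within the screen DMSO samples. The other 6 passed through treated or RH4-titled samples, and the 15 that did not pass never exceeded 1.71 TPM. Tested members had a median of 9.31 TPM in DMSO, against 16.4 TPM over all 16359 genes tested, and only 3 members stood at 50 TPM or more. ZNF146 was the highest, at 212 ± 3.64 TPM (SD, n = 2). ZNF428 followed at 62.0 ± 2.27, ZNF787 at 57.7 ± 1.21, ZNF581 at 49.5 ± 1.43 and ZNF358 at 48.8 ± 2.5 TPM. The order of ZNF581 and ZNF358 is within their spread. Over the 238 members, the mean level was between 3.04 and 3.11 on the log2(TPM + 1) scale in the 4 DMSO samples. DMSO concentration moved 0 members past adjusted p below 0.05 (limma), as it moved 0% of all genes. This fit set 2 samples against 2, although those of 1 concentration were counted as 1 elsewhere. Its p-values may therefore measure technical spread only. At unadjusted p below 0.05, 14 members passed, against 9.46% of all genes, or 10 with a replicate block, against 10.8% of all genes.

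In the screen, changes are differences of log2(TPM + 1) from DMSO of the same concentration class, averaged over both doses, and a member is called where limma's adjusted p, corrected over all 16359 genes, is below 0.05. Of the 223 tested members, 167 were called for at least 1 compound and 56 for none. For 10 compounds 0 members were called. Of all genes, the DOT1L inhibitor SGC0946 called 0.208%, EZ-005, labelled for EZH2, 0.0917%, UNC1999, labelled for EZH1, 0.0795%, the demethylase inhibitor GSKJ4 0.0122% and the LSD1 inhibitor LSD-519 0.672%. Merck60, against HDAC1 and HDAC2, called 0.141%, and OJI-1, against HDAC8, 0.208%. PFI-3, against SMARCA4, called 0.0428%, UNC-1215, against L3MBTL3, 0.0428% and the MEK inhibitor Trametinib 3.02%. The median change over the members lay between -0.04 (OJI-1) and 0.17 (EZ-005, Merck60 and UNC1999) for these.

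**Figure D1:**
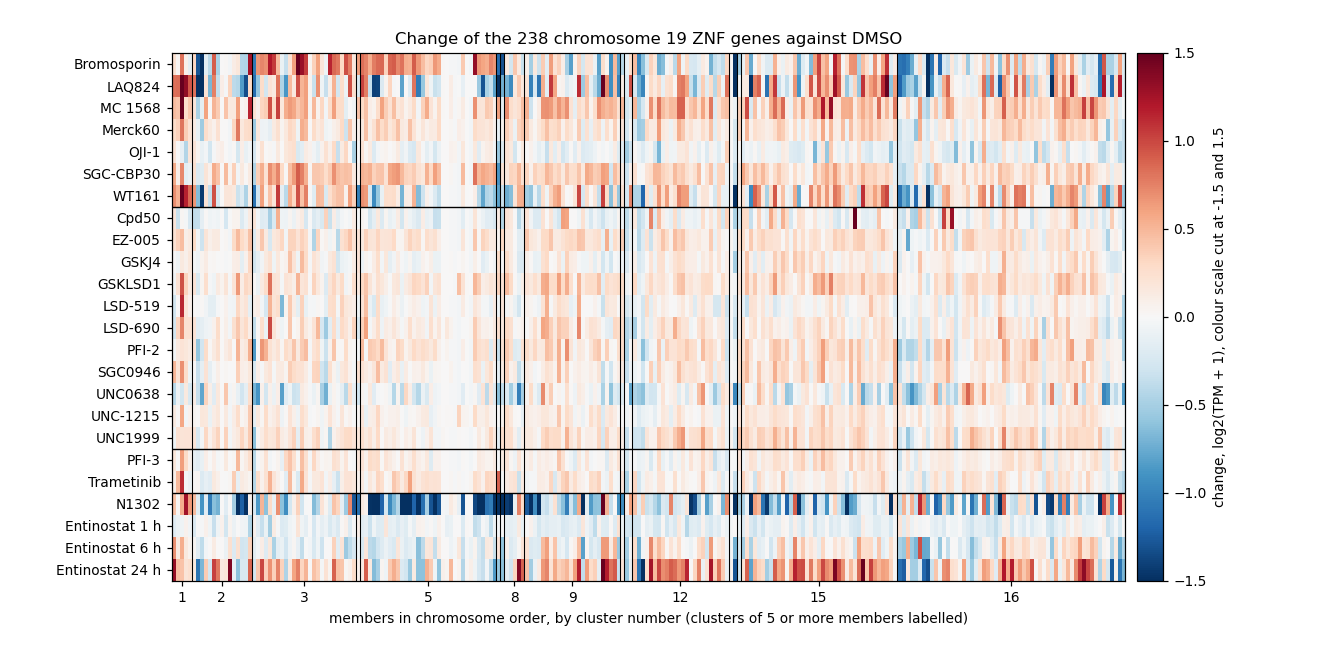
Change of each of the 238 members (columns, in chromosome order, thin lines between clusters) against DMSO for 20 screen compounds (mean of 2 doses) and for the single N1302 and entinostat samples (rows). Colour is the difference in log2(TPM + 1). Bromosporin is red over clusters 3 and 5, where N1302 is blue over cluster 5 with a median of -1.16.

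Bromosporin called 63 members higher (28.3%) and 30 lower (13.5%), whereas over all genes 13.1% were called higher and 24.2% lower, 37.3% in all. Among 253 other chromosome 19 genes of similar DMSO level, 22 were higher and 67 lower. The median change was 0.10 over the 238 members, -0.31 over those chromosome 19 genes, -0.12 over 208 numbered ZNF genes on other chromosomes and -0.15 over 2306 genes of similar level and similar GC content that are no numbered ZNF genes. Transcript GC was 42.4% (median) in members and 59.8% in the other chromosome 19 genes, and its part in the difference between these was not tested.

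The rise lay mainly in clusters 3 and 5. In cluster 5, 21 of 27 tested members were called higher and 0 lower, with a median of 0.57 over all 34, 0.71 at the high and 0.48 at the low dose. In cluster 3, 15 of 25 were called higher and 1 lower, with a median of 0.64 over all 26, 0.82 at the high and 0.48 at the low dose. Without the high-dose sample, 4 members of cluster 5 and 2 of cluster 3 were called higher, and 15 members in all in place of 93. Only 5 other genes in the span of cluster 5 were tested. They are 2 further ZNF-named entries (ZNF826P and ZNF724P), LINC00663, IPO5P1 and RPSAP58, and 3 of the 5 were called higher. In cluster 15, 12 members rose and 2 fell, and in cluster 16, 9 rose and 10 fell.

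Members with TCCAATCAGG in the promoter included 40 that were tested, of which 30 were called higher under bromosporin and 0 lower. Of these, all but the 3 in cluster 1 lie in clusters 3 and 5, and the word was picked from a cluster searched for its rise, so this count largely restates that rise. Of 156 tested members whose promoter lacked it, 28 were higher and 23 lower. Within cluster 3, 11 of 14 with the match and 3 of 9 without it were higher, with medians of 0.70 and 0.11. The 3 members of cluster 1 with the match had a median change of 0.08 and were not called. Among 31 tested genes that are no members and hold the match, 11 were called higher and 5 lower. Since nearly all of cluster 5 holds the match, cluster and match cannot be told apart there.

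ZNF878 (chr19:12154620-12163782, cluster 3) had the largest rise. It is 1 of the 6 members that passed the filter only through samples other than the screen DMSO samples, so its call is not independent of the filter. It was at 0.518, 1.38, 0.834 and 0.489 TPM in the DMSO samples, 6 to 20 reads each, and at 9.12 and 3.39 TPM with high and low bromosporin, a change of 1.91 ± 0.32 (SE, adjusted p = 0.000121). ZNF730 (chr19:23299777-23330014, cluster 5) was at 5.34, 6.44, 5.04 and 5.82 TPM in DMSO and at 20.4 and 11.8 TPM with bromosporin, a change of 1.32 ± 0.24 (adjusted p = 0.000286). ZNF844 (chr19:12175514-12188631, cluster 3) went from 5.30, 5.39, 3.36 and 4.80 TPM to 16.8 and 9.89 TPM, a change of 1.3 ± 0.23 (adjusted p = 0.000181). In each of the 3, both bromosporin samples lay above all 4 DMSO samples and the high dose was the higher. The 3 were picked for their rise in these same samples, so this separation is no further support for it. ZNF491, ZNF737 and ZNF431, singled out for their promoters after their values were seen, changed by 1.20, 0.91 and 0.91.

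The members that fell most under bromosporin lay in other clusters. ZNF114 (chr19:48773356-48790865) fell from 9.73 to 11.8 TPM in the 4 DMSO samples to 0.612 TPM at the high and 5.42 TPM at the low dose, with a change of -1.81 ± 0.40 (adjusted p = 0.00129). ZNF787 (chr19:56598729-56632742, cluster 16) went from 53.9 to 59.7 TPM to 11.5 and 30.8 TPM, a change of -1.55 ± 0.26 (adjusted p = 0.000146). ZNF414 (chr19:8575462-8579048, cluster 2), at 9.97 to 12.7 TPM in DMSO, was at 1.62 and 6.21 TPM, a change of -1.53 ± 0.36 (adjusted p = 0.00226). Both treated samples lay below every DMSO sample in all 3, which were picked for their fall in these same samples. Without the high-dose library ZNF114 and ZNF414 were not called.

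**Figure D2:**
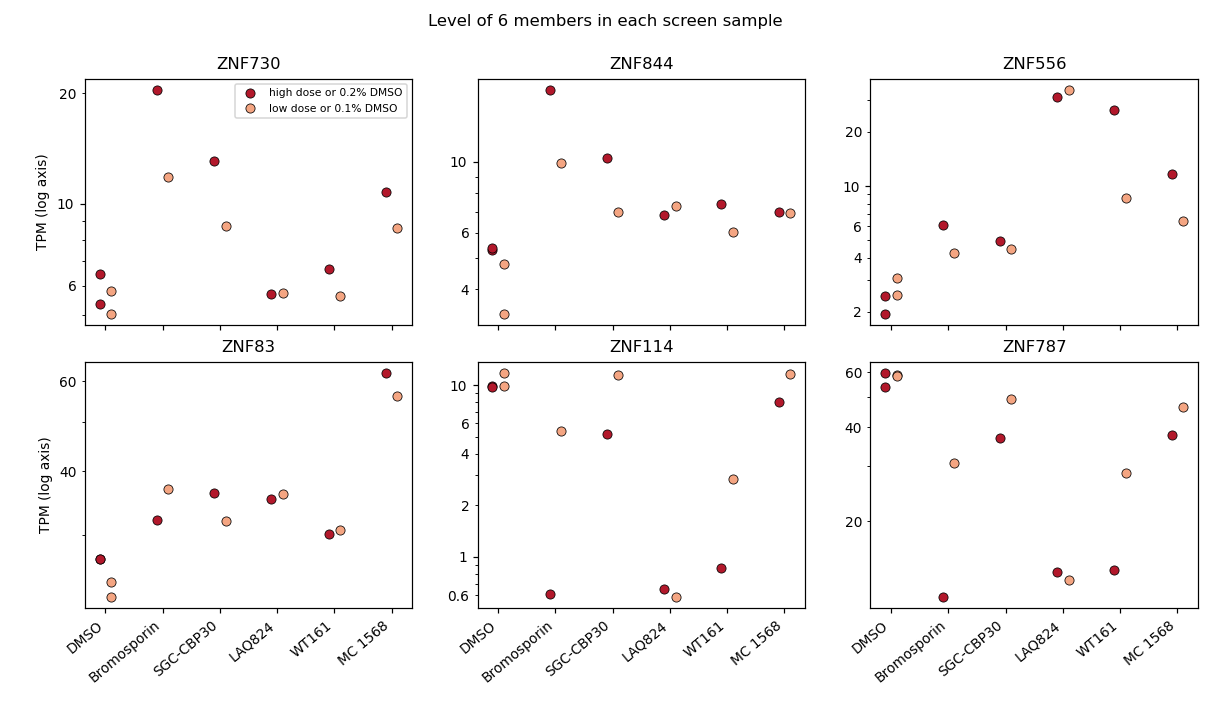
TPM (log axis) of 6 members in the 4 screen DMSO samples and in the high-dose and low-dose samples of 5 compounds, 1 point per sample. ZNF730 and ZNF844 are highest with bromosporin, ZNF556 with LAQ824, and ZNF83 with MC1568, while ZNF114 and ZNF787 are lowest with high-dose bromosporin, LAQ824 and high-dose WT161.

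Bromosporin and 13 other compounds were run on a flow cell that carried no DMSO sample, and so were GSKLSD1 and UNC-1215 on another. On the first, the median change of the members was above 0 for 12 of 14 compounds, and that of other chromosome 19 genes of similar level was below 0 for 13 of 14. Other gene groups shared the members' direction. The median was above 0 for 11 of 14 compounds over all genes tested and over genes of similar level and GC. Over numbered ZNF genes on other chromosomes it was above 0 for 10 of 14. With the other compounds of that flow cell in place of DMSO, bromosporin called 20 of 27 tested members of cluster 5 higher. In cluster 3 it called 14 of 25 higher, and 0 were called lower in either. In cluster 15 it called 10 higher and 4 lower, and in cluster 16, 6 higher and 14 lower. The share of all genes called in that fit is not given here. The same high-dose bromosporin sample entered it. Bromosporin was also tested directly against WT161, an HDAC6 inhibitor by its label, at the same doses on the same flow cell. This comparison was added after the data were seen. Of 27 members of cluster 5, 18 were higher with bromosporin and 0 lower, with a median difference of 0.78. Against DMSO, WT161 itself called 7 of the 27 lower and 3 higher, so the difference also holds changes with WT161. Of 25 in cluster 3, 8 were higher and 0 lower. Over all genes 8.7% were higher with bromosporin and 22.1% lower. In cluster 1 the reverse was seen, with 4 of 5 lower under bromosporin.

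SGC-CBP30, an inhibitor of the CREBBP and EP300 bromodomains given at the same doses on the same flow cell, had a median change of 0.29 over the 238 members, 0.36 at the high dose and 0.21 at the low dose, where bromosporin had 0.02 and 0.20. Over other chromosome 19 genes of similar level the SGC-CBP30 median was -0.02, and over genes of similar level and GC it was 0.13. It was 0.44 in cluster 5 and 0.43 in cluster 3, beside 0.57 and 0.64 with bromosporin. In the remaining clusters of 5 or more members it ran from 0.09 (cluster 1) to 0.35 (cluster 9). Bromosporin medians there ran from -0.19 (cluster 12) to 0.13 (cluster 8). With the other compounds of the flow cell as the reference, SGC-CBP30 had 0.37 over tested members of cluster 5 and 0.30 in cluster 3. Members called were 5 higher (2.24%) and 0 lower, where 0.996% of all genes were called higher and 3.17% lower. These were ZNF626 and ZNF254 of cluster 5, ZNF527 and ZNF607 of cluster 9 and ZNF45 of cluster 12, with changes of 0.46 to 0.66. ZNF730 was at 13.1 and 8.72 TPM, at each dose between bromosporin and DMSO. Without the high-dose SGC-CBP30 sample 0 members were called, without the low-dose one 25. Bromosporin and SGC-CBP30 were not tested against each other.

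**Figure D3:**
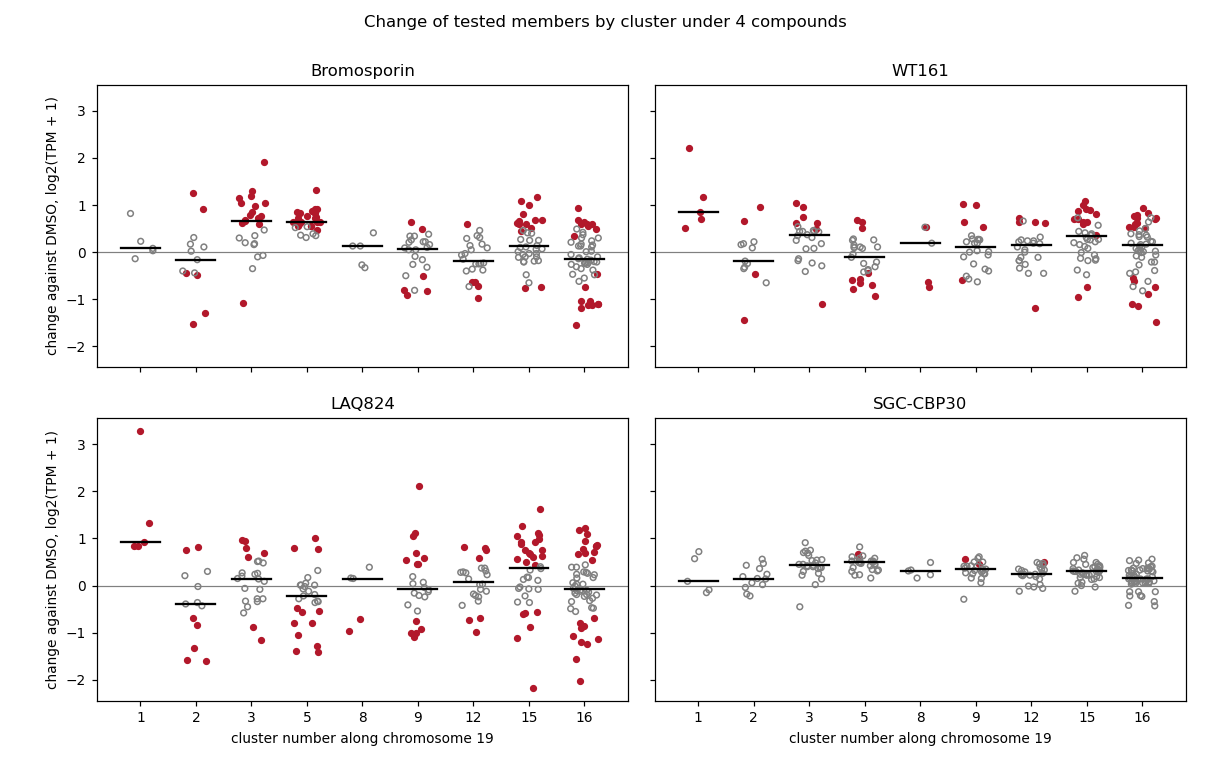
Change in log2(TPM + 1) of tested members in each cluster of 5 or more members, for 4 compounds. Filled points were called (adjusted p below 0.05), open points were not, and bars are medians over tested members. The medians of clusters 3 and 5 lie above 0 with bromosporin, with 1 member of cluster 3 called lower, and cluster 1 lies above 0 with LAQ824 and WT161, all 5 members called in each.

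LAQ824, a pan-HDAC inhibitor, called 58 members higher (26%) and 45 lower (20.2%), beside 28.9% and 25.2% of all genes, so its shares were no larger than the background. Its median over the 238 members was 0.01, against 0.24 for other chromosome 19 genes of similar level and -0.26 for numbered ZNF genes elsewhere. WT161 called 50 higher (22.4%) and 26 lower (11.7%), beside 18.4% and 15% of all genes. Clusters differed from each other within both compounds. All 5 members of cluster 1 were called higher with LAQ824 (median 0.93) and all 5 with WT161 (median 0.85). Without the high-dose WT161 sample 1 of the 5 was called, and 32 members in all. In cluster 5, 9 were called lower and 3 higher with LAQ824, and 7 lower and 3 higher with WT161. In cluster 15, 18 rose and 6 fell with LAQ824, and 12 rose and 2 fell with WT161.

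ZNF556 (chr19:2867333-2878503, cluster 1) had the largest rise of any member with either compound. It was at 1.96, 2.46, 2.5 and 3.09 TPM in DMSO, with 21 to 41 reads, at 31.4 and 34.3 TPM with LAQ824 and at 26.5 and 8.60 TPM with WT161. The changes were 3.28 ± 0.38 (adjusted p = 2.47e-07) and 2.22 ± 0.38 (adjusted p = 0.000112). Its neighbour ZNF57 (chr19:2900896-2918474) was at 6.36 to 10.1 TPM in DMSO, at 22.4 and 21.5 TPM with LAQ824 and at 26.2 and 14.3 TPM with WT161. Values at both LAQ824 doses were close in each gene, the high WT161 dose exceeded the low dose, and no treated sample fell within the DMSO range. Both genes were picked for their rise. ZNF57 was not called with WT161 without the high dose. ZNF540 (cluster 9) rose by 2.12 ± 0.30 with LAQ824, from 1.06 to 1.46 TPM in DMSO to 9.68 and 8.04 TPM. ZNF761 (cluster 15) rose by 1.63 ± 0.19 with LAQ824, from 18.4 to 19.2 TPM to 60.5 and 60.9 TPM. ZNF347 (cluster 15) rose by 1.09 ± 0.18 with WT161 and ZNF28 of the same cluster by 1.27 ± 0.20 with LAQ824.

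The same members that fell most with bromosporin fell with these HDAC inhibitors. ZNF114 was at 0.654 and 0.588 TPM with LAQ824 (change -2.80 ± 0.40, adjusted p = 3.79e-06) and at 0.865 and 2.83 TPM with WT161 (change -2.08 ± 0.40, adjusted p = 0.000378). ZNF787 was at 13.8 and 13 TPM with LAQ824 and at 14 and 28.5 TPM with WT161, changes of -2.03 and -1.48. ZNF649 (cluster 15) fell from 23.8 to 25.6 TPM in DMSO to 4.79 and 4.60 TPM with LAQ824, a change of -2.17 ± 0.27 (adjusted p = 5.44e-07). ZNF414 changed by -1.58 with LAQ824 and -1.44 with WT161, the latter not called without the high dose. These comparisons share their DMSO samples.

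ZNF428 was called lower for 4 compounds, and 12 members, among them ZNF114, ZNF787, ZNF653 and ZNF414, for 3. ZNF428 was called lower for bromosporin (-0.63), LAQ824 (-0.98), UNC0638 (-0.62) and WT161 (-1.19). ZNF653 (cluster 3), at 4.72 to 5.32 TPM in DMSO, was at 1.24 and 2.67 TPM with bromosporin and was the 1 member of its cluster called lower there. The most abundant member, ZNF146, was at 107 and 103 TPM with LAQ824 (change -1.01 ± 0.16), and ZNF358 at 15.7 and 14.8 TPM (change -1.61 ± 0.27). ZNF581 was called for no compound. ZNF536, a neuronal zinc finger gene that stands alone as cluster 6, was called lower for 3 compounds, and ZNF675 of cluster 5 was called higher with bromosporin (0.59) and lower with LAQ824 (-1.29) and WT161 (-0.78).

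ZNF83 and ZNF841, both of cluster 15, were called higher for 5 compounds each, and 7 members, among them ZNF284 (cluster 12), ZNF701 (cluster 15) and ZNF550 (cluster 16), for 4. ZNF83 was at 22.7 to 26.9 TPM in DMSO, at 32.0 and 36.9 TPM with bromosporin, at 35.3 and 36.1 TPM with LAQ824 and at 62.3 and 56.1 TPM with MC1568. All of these lay above the DMSO range, but ZNF83 was picked for its calls in these same samples. ZNF841 was at 11.2 to 13 TPM in DMSO, and at 26.1 and 26.4 TPM with LAQ824 and 25.9 and 21.6 TPM with WT161.

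MC1568 called 51 members higher (22.9%) and 0 lower, beside 20.6% and 3.34% of all genes. Its median was 0.32 over the 238 members and 0.54 over other chromosome 19 genes of similar level. Every cluster of 5 or more members had a median above 0, from 0.15 in cluster 2 to 0.45 in cluster 9. The largest changes were in ZNF556 (1.48 ± 0.38, adjusted p = 0.00663), ZNF600 (1.31 ± 0.16, adjusted p = 1.24e-05) and ZNF83 (1.20 ± 0.13, adjusted p = 6.47e-06). ZNF600 (cluster 15) was at 1.20 to 1.68 TPM in DMSO and at 5.09 and 4.92 TPM with MC1568, while LAQ824 gave 1.94 and 2.32 TPM. Without the high-dose sample 12 members were called and ZNF556 was not, and without the low-dose sample 33 were called.

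Among the compounds aimed at histone methylation, UNC0638, labelled for KMT1C, a histone methyltransferase (EHMT2, G9a), called 3 members higher (1.35%) and 10 lower (4.48%), beside 2.87% and 11.1% of all genes. Its count changed widely when either dose was left out, and each such fit rests on 1 UNC0638 sample. Cpd50, labelled as a pan-Jumonji inhibitor of histone demethylases, called 4 higher and 0 lower, beside 3.67% and 2.74% of all genes. These were ZNF160 (1.77 ± 0.18, adjusted p = 1.94e-07), ZNF470 (1.29 ± 0.16), ZNF667 (1.02 ± 0.19) and ZNF790 (0.62 ± 0.19). The LSD1 inhibitor GSKLSD1 called 4 higher and 0 lower (ZNF841, ZNF83, ZNF600 and ZNF587), beside 3.1% and 0.807% of all genes. Its flow cell held no DMSO sample, so flow cell and compound cannot be told apart there. LSD-690 called ZNF491 and ZNF420 higher (1.16% of all genes higher) and PFI-2 called ZNF83 and ZNF471 higher (0.196% of all genes higher). The calls of GSKLSD1 fell to 0 without its low-dose sample, those of LSD-690 to 0 without its high-dose sample and to 1 without its low-dose sample or 1 DMSO sample (0.2%, replicate 2), and those of PFI-2 to 0 without either of its samples and to 1 without either of 2 DMSO samples (0.1% replicate 2, 0.2% replicate 1). With the 7 compounds of the acetylation axis set against the 11 of the methylation axis, 0 of 223 members passed an adjusted p below 0.05 by limma, as did 0% of all genes. At unadjusted p below 0.05, 38 members were higher and 23 lower on the acetylation axis, beside 15.4% and 15.3% of all genes.

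**Figure D4:**
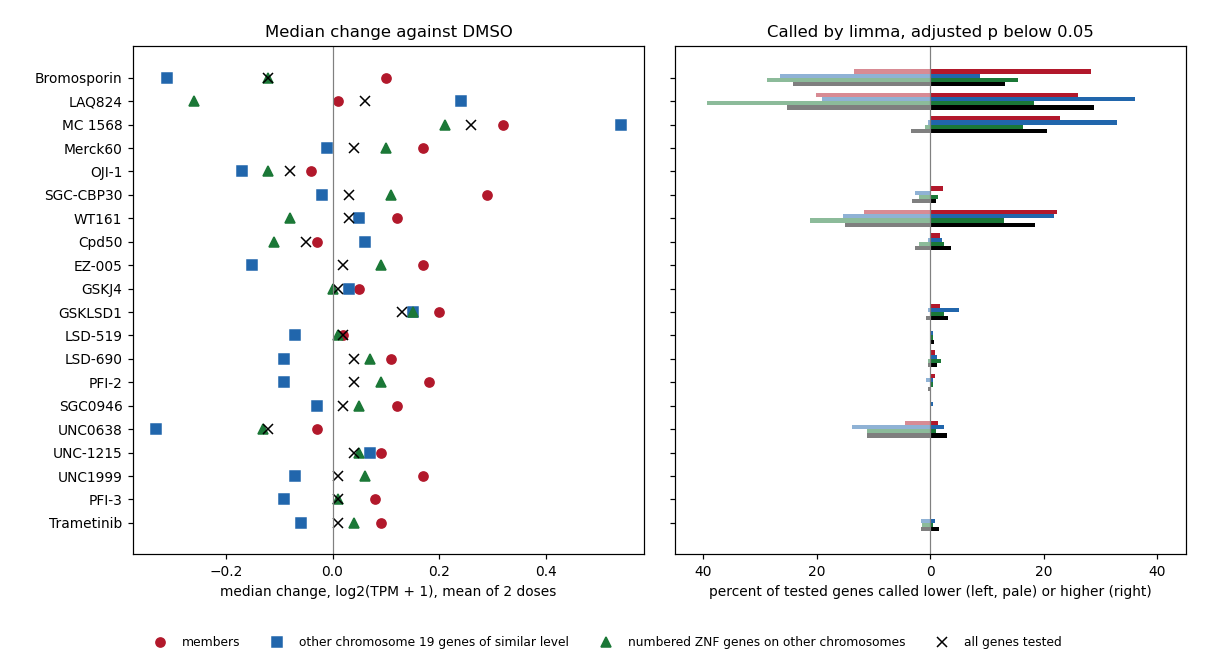
Left, median change in log2(TPM + 1) against DMSO (mean of 2 doses) of the 238 members and of 3 other gene groups for each compound; right, percent of tested genes called higher or lower by limma. Bromosporin called 28.3% of tested members higher and 8.7% of other chromosome 19 genes of similar level.

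Genes that work with KRAB zinc finger proteins in silencing, such as corepressors, histone methyltransferases and heterochromatin proteins, were read from a list of 30, of which 28 were tested. The list also holds the DNA-binding zinc finger factors CTCF and YY1, which are no KRAB corepressors and which both fell with LAQ824. LAQ824 lowered 21 and raised 3, WT161 lowered 16 and raised 4, and bromosporin lowered 12 and raised 2, while MC1568 lowered 2 and raised 1. Of all genes, 25.2%, 15%, 24.2% and 3.34% were lower with these compounds in that order. The median change over the 28 was -0.69, -0.42, -0.30 and 0.06, respectively. TRIM28, the corepressor that KRAB domains bind, rose by 0.53 ± 0.12 with bromosporin (adjusted p = 0.00137) and changed by -0.28 with LAQ824, -0.35 with WT161 and -0.57 with UNC0638, all 4 called. Bromosporin, WT161 and UNC0638 shared the flow cell without DMSO, so flow cell and compound cannot be told apart there. On it, TRIM28 changes that were not called ran from -0.44 (PFI-2) to 0.09 (SGC-CBP30). SETDB1, which TRIM28 recruits, fell with bromosporin (-1.65 ± 0.29, adjusted p = 0.000176), LAQ824 (-1.10) and WT161 (-0.91). HDAC2 fell with bromosporin (-0.38), LAQ824 (-0.55) and WT161 (-0.25), and HDAC1 rose with LAQ824 (0.40), MC1568 (0.42), SGC-CBP30 (0.35), UNC0638 (0.38) and WT161 (0.28). On the flow cell of SGC-CBP30, UNC0638 and WT161, HDAC1 changes that were not called ran from 0.03 (EZ-005) to 0.28 (PFI-2).

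N1302, an HDAC inhibitor, had 1 treated and 1 DMSO sample, so its differences have no replicate check. Of the 238 members, 91 were at least 1.5-fold lower (38.2%) and 18 at least 1.5-fold higher (7.56%), beside 31.5% and 19.9% of all genes. Other chromosome 19 genes of similar screen level went the other way, with 17% lower and 45.1% higher. Their control was low, with a mean log2(TPM + 1) of 2.29 in the N1302 DMSO sample and 2.83 with N1302. In the time-course DMSO samples, also titled RH4, that mean was 2.93 to 3.10. For the members it was 2.66 in the N1302 DMSO sample and 2.76 to 2.80 in those. The part of that DMSO sample in these differences was not tested. The members' median was -0.30, that of genes of similar level and GC -0.41. Numbered ZNF genes on other chromosomes had a median of -0.72, with 55.3% at least 1.5-fold lower and 8.17% higher. Cluster 5 had a median of -1.16, with 22 of 34 members at least 1.5-fold lower and 0 higher, while cluster 3 had -0.12 and cluster 1 had 0.54. Median-ratio scaling raised N1302 differences by 0.33 on the log2 TPM scale, before the pseudocount, which dampens the shift in low genes. After it the medians were -0.06 over the members and -0.97 in cluster 5.

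ZNF536 went from 16 TPM in DMSO to 1.78 TPM with N1302 (796 and 62 reads), ZNF675 of cluster 5 from 14.9 to 1.61 TPM (331 and 25 reads) and ZNF649 from 18.8 to 2.42 TPM (610 and 55 reads). The largest increases were ZNF540, from 0.579 to 4.40 TPM (19 and 101 reads), ZNF57, from 11.2 to 28.2 TPM, and ZNF580 (cluster 16), from 4.98 to 12.1 TPM. ZNF580 was at 17.9 TPM in the other 6 h DMSO sample titled RH4, and its change was 0.30 rather than 1.13 with both DMSO samples as the reference.

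Entinostat, an inhibitor of HDAC1, HDAC2 and HDAC3, also had 1 sample per time. At 1 h, 0 members were past 1.5-fold in either direction, beside 1.42% of all genes higher and 1.28% lower. At 6 h, 11 were higher (4.62%) and 9 lower (3.78%), beside 14.5% and 5.53%. At 24 h, 67 were higher (28.2%) and 20 lower (8.4%), beside 28.2% and 16%. The median over the 238 members was -0.10, 0.00 and 0.28 at the 3 times. At 24 h, clusters 12 and 15 had medians of 0.56 and 0.58, with 12 of 24 and 19 of 39 members at least 1.5-fold higher, while cluster 5 had -0.02 with 1 of 34 higher and 5 lower.

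ZNF540 was at 0.900 TPM in DMSO and 6.82 TPM with entinostat at 24 h (38 and 265 reads), ZNF347 at 7.18 and 21.8 TPM, and ZNF28 at 14.5 and 40.1 TPM. ZNF428 went from 67.3 to 20.1 TPM at 24 h, ZNF787 from 51.9 to 20.2 TPM and ZNF114 from 5.30 to 1.56 TPM (170 and 46 reads). At 6 h ZNF787 had already gone from 52.4 to 30.5 TPM, while ZNF428 was at 73.6 TPM in DMSO and 70.8 TPM with entinostat.

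**Figure D5:**
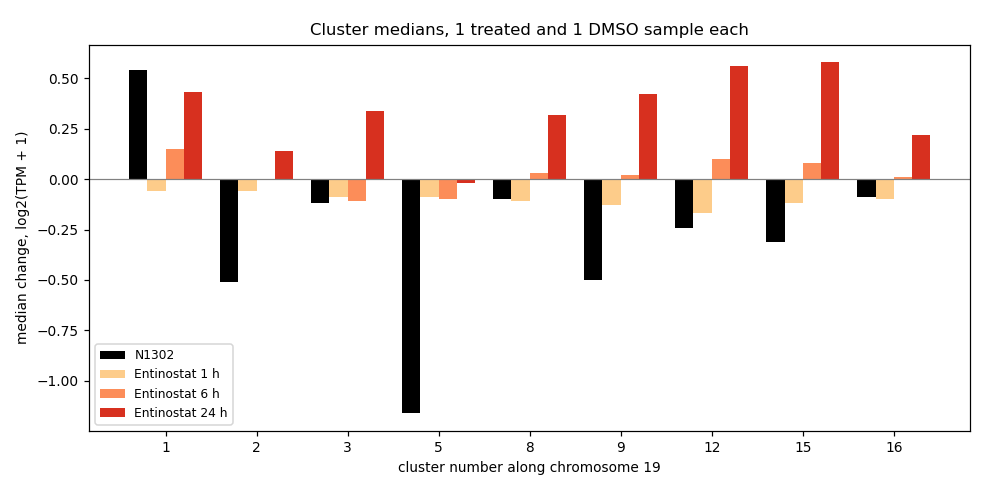
Median change in log2(TPM + 1) of all members in each cluster of 5 or more, for N1302 at 6 h and entinostat at 1, 6 and 24 h, each 1 treated sample against 1 DMSO sample. The N1302 bar of cluster 5 reaches -1.16, and the 24 h entinostat bars reach 0.56 and 0.58 in clusters 12 and 15.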

How the data were processed

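Poly-A selected RNA was sequenced from 52 samples. Per the study's methods the authors aligned reads to hg19 with STAR and computed TPM with RSEM; the labels also list edgeR, in a role not given in the sources used here. The deposited values are TPM per gene and sample, which the authors normalised for gene length and library size. TPM values of 23645 of 23645 genes with a value above 0 were whole multiples of a step (tolerance 0.01 reads), which gave read numbers. Poly-A selection and length scaling limit comparison of levels between genes.

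Values were analysed as log2(TPM + 1) with limma 3.58.1 (R 4.3.3), trend on, 42 columns (DMSO averaged per concentration), dose level as a covariate and 20 residual degrees of freedom. P-values were adjusted by Benjamini-Hochberg over 16359 genes. On simulated data with 200 genes changed 2-fold, the compound fit on these genes recovered 163 with 0 false calls. The simulation held no effect of other compounds, no dose response and no flow cell difference, so it does not cover false calls from these. Its changed genes were not drawn from the lowest ones. No test was run for N1302 or entinostat. Other genes of similar level had DMSO values between the 10th and 90th percentile of tested members. Alternatives were another pseudocount, scaling, filters, thresholds, references and left-out samples. The members, gene lists and named-gene rule were chosen with earlier results of these data known. The rule named the 5 highest members, the 3 largest called changes each way for the 4 compounds with most calls, the 5 called most often each way and the 3 largest changes each way for N1302 and 24 h entinostat.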

Additional observations from a re-analysis of the deposited data

How the results depend on the processing

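Of the alternatives to 34 main counts, 269 gave a count within 1.5 times the main one and 76 did not. Of the alternatives to 33 changes of named members, 262 kept the direction and the side of the threshold or moved by less than 1.5-fold, 5 lost the call and 3 moved further (ZNF540 with N1302 2.73 and with 24 h entinostat 2.79 at a pseudocount of 0.1, ZNF580 with N1302 0.30). None of either kind turned its direction. The DMSO comparison called 0 members without and 0 with a replicate block. Same-numbered DMSO samples share a flow cell, per the column headers, so the block is the flow cell; their deviations had a correlation of 0.07 over genes. No other comparison has numbers that pair samples.

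Requiring a change of at least 1 on the log2 scale left 25 members for bromosporin, 34 for LAQ824, 6 for MC1568, 13 for WT161 and 0 for GSKLSD1, LSD-690, PFI-2, SGC-CBP30 and UNC0638. It left 1 member of cluster 5 and 6 of cluster 3 higher with bromosporin, and 2 of cluster 1 with LAQ824 and with WT161. A mean of at least 5 TPM left 7 members of cluster 3 for bromosporin. With all 4 DMSO samples and no dose level the counts were 12 for GSKLSD1, 1 for LSD-519, 4 for LSD-690, 79 for MC1568, 3 for Merck60, 2 for OJI-1, 4 for PFI-2, 3 for SGC0946, 33 for SGC-CBP30, 5 for Trametinib, 32 for UNC0638 and 2 for UNC1999. With the other compounds of 1 flow cell as the reference they were 1 for LSD-519, 0 for LSD-690, 3 for OJI-1, 0 for PFI-2, 1 for Trametinib and 38 for UNC0638. LSD-690 called 1 member with a pseudocount of 0.1, 0 with scaling and 1 with no filter, SGC0946 1 with scaling and 1 with no filter, and UNC-1215 1 with no filter. The axes called 17 members from the high dose alone and 3 at a mean of at least 5 TPM.

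Leaving out 1 sample at a time gave 15 to 119 members for bromosporin, 0 to 6 for GSKLSD1, 0 to 2 for LSD-690, 12 to 54 for MC1568, 0 to 3 for OJI-1, 0 to 2 for PFI-2, 0 to 25 for SGC-CBP30, 1 to 77 for UNC0638, 0 to 3 for UNC1999 and 32 to 81 for WT161. For bromosporin, WT161 and UNC0638 the lowest count came without the high dose. It gave 4 to 22 members of cluster 5 and 2 to 16 of cluster 3 for bromosporin, and 1 to 5 of cluster 1 for WT161. With 1 dose left, the lone sample is assumed to vary like the others.

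For N1302, 34 members were higher at a pseudocount of 0.1, 36 with scaling and 5 at 2-fold, and 55 were lower at 2-fold. For entinostat at 1 h, 1 was higher and 7 lower at a pseudocount of 0.1. At 6 h, 23 were higher and 22 lower at that pseudocount, 17 higher with scaling, 20 higher with both 6 h DMSO samples and 0 either way at 2-fold. At 24 h, 19 were higher and 10 lower at 2-fold. On the log2 TPM scale, before the pseudocount, scaling moved differences by 0.12 for bromosporin and 6 h entinostat, 0.13 for Cpd50 and 0.11 for UNC0638. The cause of these differences was not tested. Members under about 1 TPM rest on few reads, and a difference there was not detectable at this depth.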
